A study of Mus musculus with 6 samples.

Results

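The 10 Serpina genes described here lie together on mouse chromosome 12 and were measured in skin endothelial cells of mice deficient in APJ, which binds the peptide apelin. They were Serpina1b, Serpina1c, Serpina1e, Serpina3b, Serpina3c, Serpina3f, Serpina3g, Serpina3i, Serpina3m and Serpina3n. A probe was taken where its RefSeq accession carried 1 of these symbols, which found 9 of the 55681 probes and 7 of the 20018 gene symbols on the array. Serpina1b, Serpina3g and Serpina3i had no probe by this rule and are named only. Some accessions on the array are not held by the RefSeq table used, so a probe for one of these 3 genes may have gone unnamed. The genes were chosen by the differences between knockout and wild type on these same arrays, so those differences are given below as a description, with no p-value, and support nothing.

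There were 3 samples labelled APJ KO and 3 labelled wildtype, all of strain C57Bl/6J, each described by the number of a mouse, with nothing said of pooling. Endothelial cells were marked, isolated by flow cytometry without later treatment, and 0.1 µg of RNA per sample was labelled with the dye Cy3. The labels describe no allele, no promoter or Cre and no sorting markers, and the age of the mice is not among them, though names of the scanner files carry an embryonic stage. The spread and the p-values concern these 6 samples only. Levels are log2 signals minus the 75th percentile of the same array, so 0 marks that percentile. The percentile lay between 259 and 398 intensity units in the knockout and between 250.4 and 377 in wild type. Aplnr, the gene for APJ, read 1.90, 1.72 and 2.26 on knockout arrays, against 3.35, 3.78 and 3.83 on wild-type arrays. On the log2 scale it fell by 1.69 ± 0.19 (SE, n = 3 arrays each), with a limma adjusted p of 0.0206. Blocking on replicate number gave 0.068. All 10 pan-endothelial markers, among them Pecam1, Cdh5 and Kdr, were well above background on all 6 arrays. Their summed signal ran from 385 to 420 in the knockout and from 389 to 411 in wild type, in multiples of the 75th percentile, and 0 of 10 passed the test (limma; 0 had an unadjusted p under 0.05).

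Serpins are protease inhibitors that act as bait: a protease cuts an exposed loop, the serpin changes shape, and both are trapped in an inactive complex. Clade A holds the α1-antitrypsin genes (Serpina1), made mostly by hepatocytes and known for blocking neutrophil elastase, and the α1-antichymotrypsin genes (Serpina3), which act on chymotrypsin-like and related proteases. Mice carry several copies of each, which differ mainly in the bait loop. Several Serpina3 copies are induced by cytokines or glucocorticoids in other tissues.

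The promoter windows of 4 genes whose probes were measured and of Serpina3n, which was not above background, are shown because the copies lie side by side and resemble each other. Each runs from 250 bases before to 50 bases after the annotated start, from RefSeq on build GRCm38.p6. Capitals mark matches to TTCNNNGAA (bound by STAT dimers), GGG and TTTCC with 2 bases between (NF-kB), TATAAA (the TATA box), GTTAAT (an HNF1 half-site), GNACA and TGTNC with 3 bases between (the glucocorticoid receptor), GAAA given again after 2 bases (the interferon response core) and TGANTCA (AP-1), searched on both strands. No 2 of the motifs overlap in the windows shown.
Serpina3f, chr12:104214294-104214593, plus strand: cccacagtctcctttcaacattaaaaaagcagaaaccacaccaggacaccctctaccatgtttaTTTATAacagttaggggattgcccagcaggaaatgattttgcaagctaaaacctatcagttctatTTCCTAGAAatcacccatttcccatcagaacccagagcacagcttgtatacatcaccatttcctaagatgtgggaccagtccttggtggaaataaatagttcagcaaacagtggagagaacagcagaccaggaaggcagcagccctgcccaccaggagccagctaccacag
Serpina3b, chr12:104127746-104128045, plus strand: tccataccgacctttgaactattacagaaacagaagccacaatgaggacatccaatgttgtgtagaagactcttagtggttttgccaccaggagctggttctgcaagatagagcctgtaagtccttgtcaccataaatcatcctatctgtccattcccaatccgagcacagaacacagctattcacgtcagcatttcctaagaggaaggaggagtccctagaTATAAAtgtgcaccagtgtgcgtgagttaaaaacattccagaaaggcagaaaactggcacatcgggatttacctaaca
Serpina3n, chr12:104406458-104406757, plus strand: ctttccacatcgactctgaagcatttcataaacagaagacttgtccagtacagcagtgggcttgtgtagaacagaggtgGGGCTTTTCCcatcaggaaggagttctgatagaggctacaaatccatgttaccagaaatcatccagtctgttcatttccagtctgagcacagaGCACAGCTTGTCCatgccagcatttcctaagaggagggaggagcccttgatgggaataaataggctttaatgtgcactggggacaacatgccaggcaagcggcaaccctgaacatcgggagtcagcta
Serpina1c, chr12:103904901-103905200, minus strand: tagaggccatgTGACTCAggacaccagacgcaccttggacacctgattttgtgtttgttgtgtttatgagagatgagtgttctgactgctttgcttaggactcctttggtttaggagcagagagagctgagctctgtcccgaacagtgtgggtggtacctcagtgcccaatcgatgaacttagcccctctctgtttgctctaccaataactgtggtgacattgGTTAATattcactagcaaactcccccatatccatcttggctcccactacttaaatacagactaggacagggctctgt
Serpina1e, chr12:103956848-103957147, minus strand: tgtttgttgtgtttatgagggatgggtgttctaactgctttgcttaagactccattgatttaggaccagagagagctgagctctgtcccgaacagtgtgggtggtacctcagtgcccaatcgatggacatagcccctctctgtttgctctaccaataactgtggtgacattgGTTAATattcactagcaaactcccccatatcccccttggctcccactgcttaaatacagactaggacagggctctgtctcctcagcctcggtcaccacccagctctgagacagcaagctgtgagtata

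A STAT-type match lay in Serpina3f at 121 bases before the start, and none was found in the Serpina3b, Serpina1c or Serpina1e windows. Of 32851 promoter windows of the same length, 8.30% hold that motif. The windows of Serpina3g and Serpina3i, neither matched to a probe here, also hold it. So do those of Serpina1f and Serpina11, which were tested and not called (differences of 0.37 and -0.000897). Serpina1c and Serpina1e share the HNF1 half-site, which 7.10% of windows hold, and Serpina1c has an AP-1 match, which 7.81% hold. The windows of Serpina1a, Serpina1b and Serpina1d hold both motifs as well. The half-site lay at -27 from the start in Serpina1c and at -78 in Serpina1e. The Serpina1e window thus does not reach the stretch that holds the AP-1 match in Serpina1c. Its lack of a match therefore does not separate these copies. Serpina3b has a TATA box 28 bases before its start (13.6% of windows) and Serpina3f an inverted one farther upstream. Serpina3n holds an NF-kB match and a glucocorticoid receptor match, found in 1.63% and 0.475% of windows, and neither Serpina3f nor Serpina3b holds either motif. A match is only a run of letters, and no binding was measured. RefSeq windows matched 9 of the 10 genes, Serpina3m having none in the table used.

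The windows also show how close the copies are in this stretch, which is no measure of how alike their transcripts or probes are. For scale, Serpina1e matched Serpina3i, of the other group, at 56.0% under the same alignment. Where they overlap, Serpina1c and Serpina1e were identical at 237 of 249 aligned columns (95.2%). Serpina1a and Serpina1c were identical at 94.9%, and Serpina3c and Serpina3n at 92.6%. Within the other Serpina3 copies, Serpina3f matched Serpina3i at 75.7% and Serpina3g at 79.0%. Serpina3b matched Serpina3n at 70.2% and Serpina3i at 70.3%. Probe sequences were not used here, so a probe of any member may also have bound the transcript of a paralogue, and each value below belongs to the probe before it belongs to the gene.

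Serpina3f, a clade A3 serpin, had 2 probes for the same transcript accession, and on both all knockout arrays lay above all wild-type arrays. Probe A_55_P2142226 read 1.57, 2.09 and 1.71 in the knockout, against -1.54, -1.70 and -1.24 in wild type. In linear terms that is 297%, 427% and 326% of the array's 75th percentile in the knockout, against 34.5%, 30.7% and 42.2% in wild type. The groups were 2.81 log2 units apart at their nearest arrays.

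The mean of that probe was 1.79 ± 0.27 in the knockout and -1.49 ± 0.23 in wild type (SD, n = 3 each). The difference was 3.28 ± 0.18 (SE), or 9.74-fold. It was 3.45 within slide 1, which held replicates 1 and 2 of both genotypes, and 2.95 within slide 2, which held replicate 3 of both. In these sorted bulk samples, more cells carrying a transcript and more transcript per cell cannot be told apart.

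The other Serpina3f probe, A_55_P2104975, read -1.79, -1.16 and -1.46 in the knockout, against -3.48, -3.18 and -3.22 in wild type. Its mean was -1.47 ± 0.31 in the knockout and -3.29 ± 0.16 in wild type (SD, n = 3 each), a difference of 1.82 ± 0.18 (SE), or 3.54-fold. Both probes of this accession were higher in the knockout, by unequal amounts. Replicate 2 was the highest knockout array on both probes and replicate 1 the lowest. With a normexp background correction and an offset of 50, an alternative added after seeing the data, the differences were 2.69 and 0.88.

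Serpina3b, another antichymotrypsin-like copy, read -0.22, 0.15 and -0.11 in the knockout, against -1.26, -1.09 and -0.91 in wild type. Knockout arrays lay at 86.0%, 111% and 92.5% of the 75th percentile, and wild-type arrays at 41.7%, 47.1% and 53.1%, without overlap. The mean was -0.06 ± 0.19 in the knockout and -1.09 ± 0.18 in wild type (SD, n = 3 each), a difference of 1.03 ± 0.14 (SE), or 2.04-fold. The difference was 1.14 within slide 1 and 0.80 within slide 2.

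Serpina3c, known as a kallikrein-binding protein, and Serpina3n, an inhibitor of granzyme B and cathepsin G, were not well above background on any of the 6 arrays. Serpina3c read -6.72, -6.58 and -7.30 in the knockout, against -6.81, -6.41 and -7.24 in wild type. Serpina3n read -6.73, -6.61 and -7.32 in the knockout, against -6.82, -6.42 and -7.26 in wild type. The groups overlap on both probes. Serpina3m, a further antichymotrypsin-like copy, was also not well above background anywhere, at -5.58, -6.11 and -5.57 in the knockout against -6.29, -6.60 and -6.54 in wild type. Its knockout arrays lay above the wild-type arrays by at least 0.18, but no fold is given for values below background. These 3 of the 9 probes did not pass the filter for testing.

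**Figure D1:**
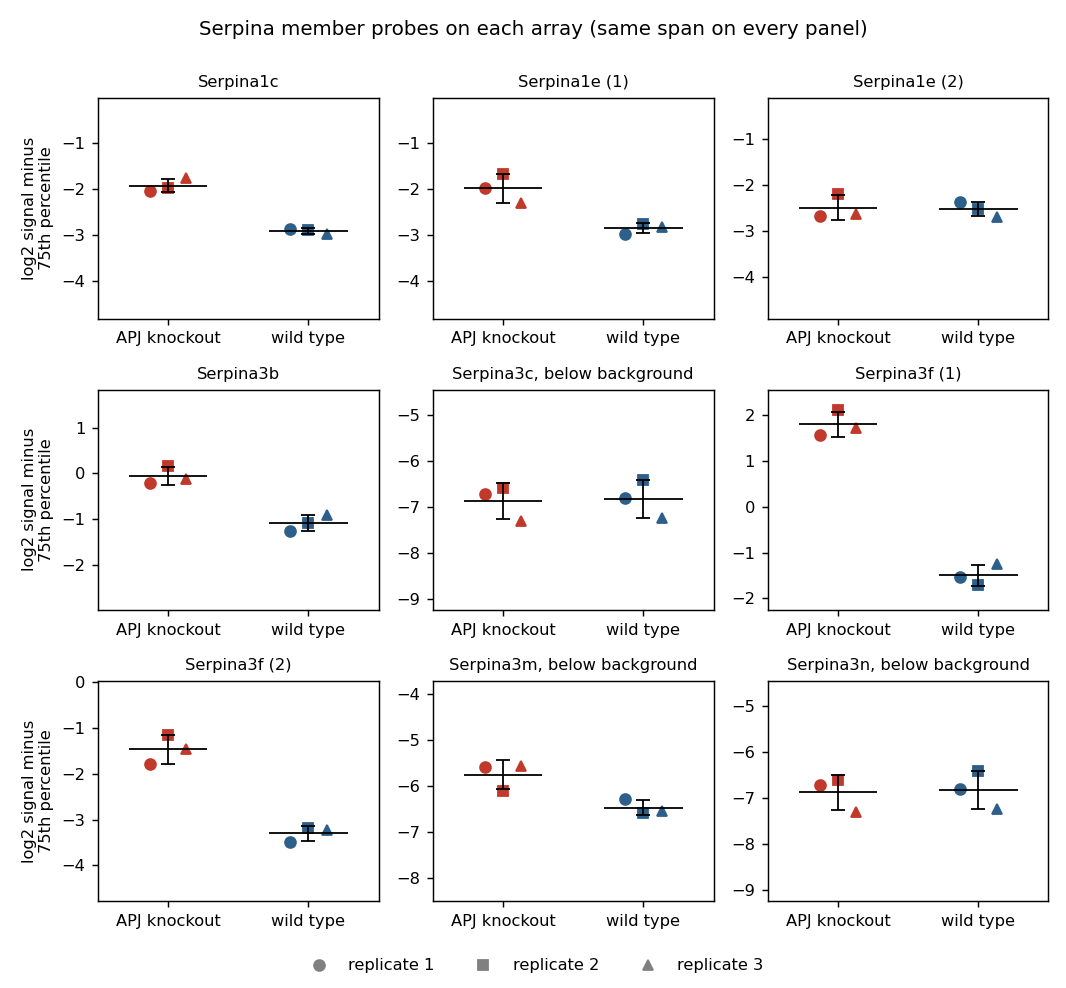
Log2 signal minus the array's 75th percentile (vertical axes, 4.8 log2 units on every panel) for the 9 Serpina probes, with 3 APJ knockout arrays left of 3 wild-type arrays; marker shape is the replicate number, lines and bars are mean ± SD. Both Serpina3f probes, Serpina3b, Serpina1c and the Serpina1e probe marked (1) show knockout arrays above wild-type arrays; Serpina1e (2), Serpina3c and Serpina3n overlap.

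Serpina1c, an α1-antitrypsin copy, had 1 probe (A_55_P2010301), which read -2.04, -1.97 and -1.77 in the knockout, against -2.87, -2.89 and -2.98 in wild type. Its mean was -1.93 ± 0.14 in the knockout and -2.91 ± 0.06 in wild type (SD, n = 3 each). The difference was 0.99 ± 0.10 (SE), or 1.98-fold, with no overlap between arrays. It was 0.87 within slide 1, 1.21 within slide 2 and 0.45 with the normexp correction.

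Serpina1e, a further α1-antitrypsin copy, had 2 probes that differed from each other. Probe A_55_P2113857 read -1.98, -1.69 and -2.31 in the knockout, against -2.98, -2.77 and -2.84 in wild type, a difference of 0.87 ± 0.17 (SE, n = 3 per group). Probe A_55_P2010292 read -2.68, -2.19 and -2.64 in the knockout, against -2.37, -2.52 and -2.69 in wild type, a difference of 0.03 ± 0.16 (SE, n = 3 per group). The genotypes overlapped on A_55_P2010292 and not on A_55_P2113857. The difference of A_55_P2113857 was 1.04 within slide 1, 0.53 within slide 2 and 0.31 with the normexp correction.

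Of the 9 member probes 6, from 4 genes, entered the fit over all probes, which gives their background share and is no test of genes chosen on it. There 4 were past an adjusted p of 0.05 (both Serpina3f probes, Serpina3b and Serpina1c), all higher in the knockout. Over all 28368 tested probes 0.465% were called higher, 0.229% lower and 0.694% in either direction, and since this contrast was in view when the genes were chosen, nothing is read from the count. Blocking on the slide 4 of the 6 passed, against 0.86% of all probes called higher, and blocking on replicate number 0 of the 6 passed, against 0.0282%. Leaving out any 1 array left 1 or 2 of the 6, against 28 to 76 of all 28368 probes called higher. Of these 6 fits Serpina3f probe A_55_P2142226 passed in 6, the other Serpina3f probe in 3, Serpina1c in 1 and Serpina3b in 0. For 5 of the 6 member probes the arrays did not overlap, having all knockout arrays above all wild-type arrays, as 6.41% of all tested probes did.

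**Figure D2:**
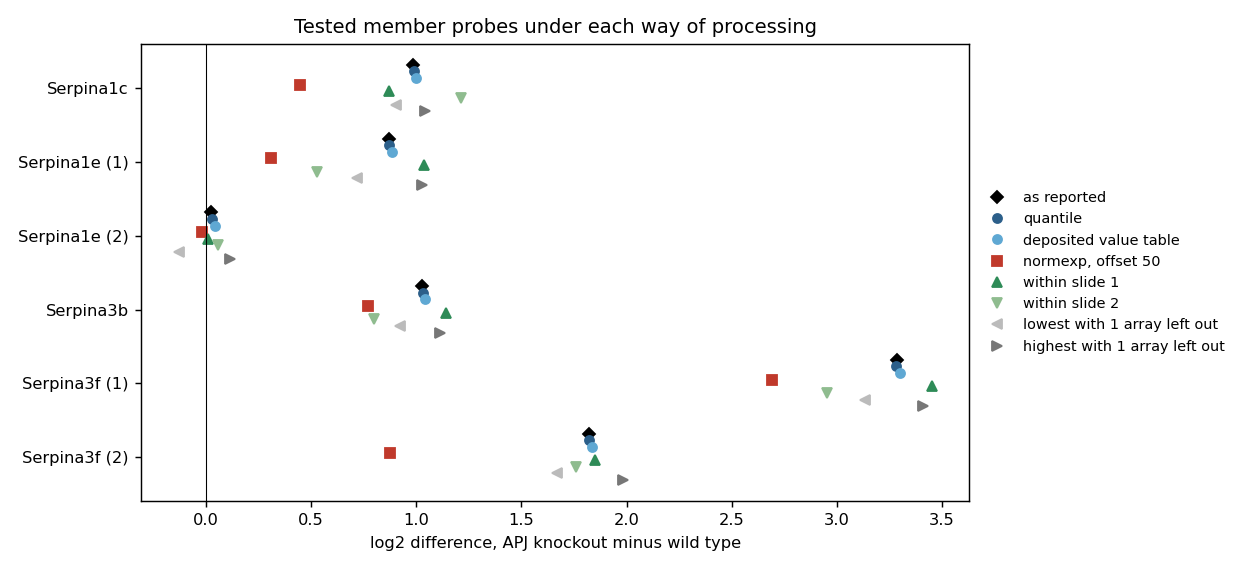
Log2 difference, APJ knockout minus wild type (horizontal axis), of the 6 tested member probes under each way of processing, within each slide, and at the extremes with 1 array left out. Probe 1 of Serpina3f lies between 2.69 and 3.45 throughout; the normexp points (red squares) are smaller than the reported values for every probe, and the Serpina1e probe marked (2) lies on both sides of 0.

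The other Serpina genes of chromosome 12 were 14 symbols with 19 probes, and 7 probes of 6 genes were tested. None passed (limma; 1 had an unadjusted p under 0.05), and their median difference was 0.13, against -0.02 over all tested probes. The 1 was a probe of Serpina1a, an α1-antitrypsin copy, A_55_P2165414. It read -1.96, -1.62 and -2.06 in the knockout, against -2.67, -2.83 and -3.14 in wild type. Its difference was 1.00 ± 0.17 (SE, n = 3 each, with limma adjusted p = 0.0742). Blocking on the slide gave 0.0294 and blocking on replicate number 0.0913, and with 1 array left out it ran from 0.119 to 0.267.

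The other Serpina1a probe, A_55_P2010312, differed by 0.23 ± 0.14 (SE, n = 3 each, with limma adjusted p = 0.885). Among probes of the α1-antitrypsin copies, 1 each for Serpina1a, Serpina1c and Serpina1e thus lay between 0.87 and 1.00, and a further 1 each for Serpina1a and Serpina1e between 0.03 and 0.23. A probe of Serpina1d was not well above background in wild type, where it read -4.86, -5.50 and -6.06. In the knockout it was above background on 2 of 3 arrays, at -4.64, -4.24 and -4.79, and was not tested. Serpina1f, an epididymal relative, differed by 0.37 ± 0.19 (SE, n = 3 each, with limma adjusted p = 0.783).

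Among the rest, Serpina3h, annotated as a transcribed pseudogene that lies 2 genes from Serpina3f, read -0.02, 0.15 and 1.01 in the knockout, against -0.04, -0.20 and 0.99 in wild type. It differed by 0.13 ± 0.39 (SE, n = 3 each, with limma adjusted p = 1.00), and replicate 3 was the highest array in both genotypes. Serpina10, which inhibits coagulation factor X with protein Z, differed by -0.15, and Serpina9, a serpin of germinal-centre B cells, by -0.06. Serpina11 differed by -0.000897. Serpina3k, contrapsin, was well above background on 1 of 3 arrays of each genotype and was not tested. Serpina5, Serpina6, Serpina12, Serpina3a, Serpina3j and Serpina4-ps1 were not well above background on any array.

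The genes that flank the cluster were taken as the 15 nearest protein-coding genes on each side. Of these 30, 15 were tested and 0 passed (limma; 1 had an unadjusted p under 0.05). Their differences ran from -0.25 to 0.80 with a median of 0.02. The nearest tested genes were Ifi27, an interferon-induced membrane protein (-0.25 ± 0.14, SE, n = 3 each, with limma adjusted p = 0.861), and Dicer1, the nuclease that cuts microRNA precursors (-0.08 ± 0.14, limma adjusted p = 1.00).

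**Figure D3:**
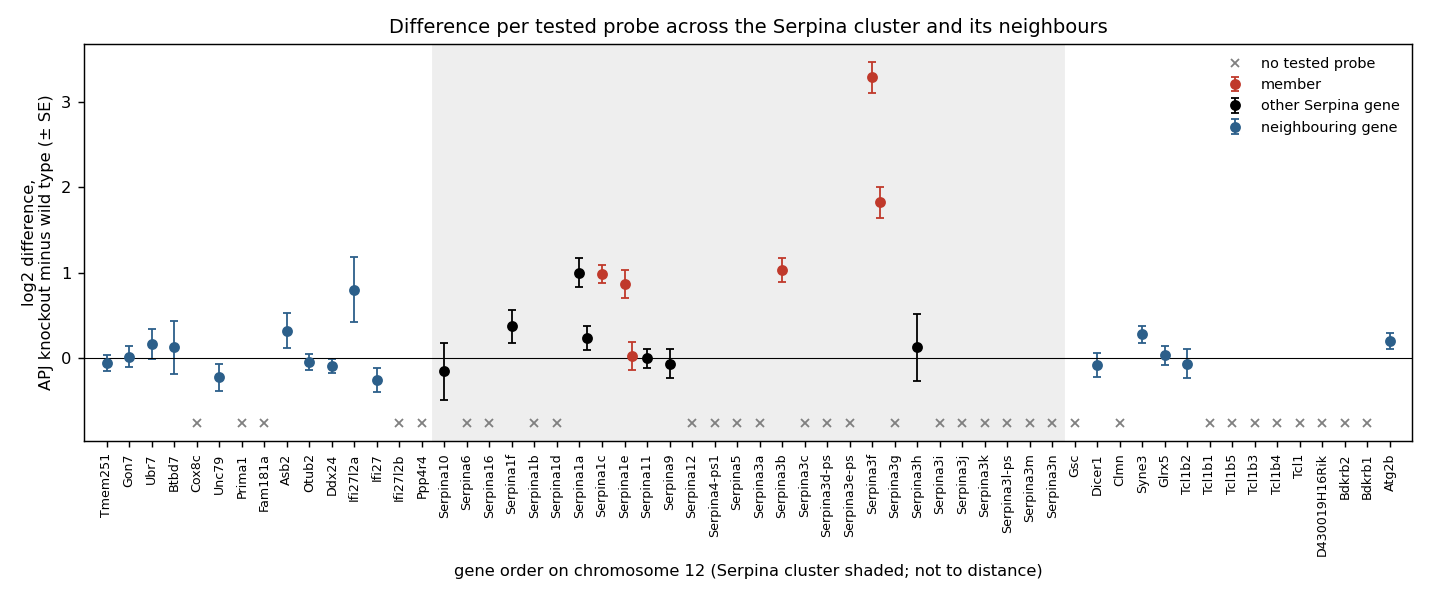
Log2 difference, APJ knockout minus wild type, with the SE of the fit (vertical axis), for each tested probe along the gene order on chromosome 12 (horizontal axis, not to distance), with the Serpina cluster shaded; crosses mark genes with no tested probe. Member probes reach 3.28 and 1.82 at Serpina3f, while the 15 tested neighbours lie between -0.25 and 0.80.

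Transcript patterns over the 6 arrays were compared with that of Serpina3f probe A_55_P2142226, which had both the highest mean level and the largest difference of the members. Of 12990 named genes, the closest were Slc38a4, an amino acid transporter (Pearson r = 0.996), Kcnq1, a potassium channel (0.994), Stab1, a scavenger receptor (0.993), and Flt4, the VEGF-C receptor (0.989). All 6 arrays enter each r and share the genotype split, so this is a description. Their own differences were far smaller, at 0.53 for Slc38a4, 0.80 for Kcnq1, 0.55 for Stab1 and 0.39 for Flt4.

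Among serpins of other clades, of 27 genes 17 were tested, 1 fell and 0 rose, with a median difference of -0.06, against -0.02 over all tested probes. Over all named genes 0.453% rose and 0.26% fell. Serpinf1, which encodes the anti-angiogenic factor PEDF, read 1.57, 1.58 and 1.54 in the knockout, against 2.15, 2.30 and 2.09 in wild type. On the log2 scale it fell by 0.62 ± 0.09 (SE, n = 3 each, with limma adjusted p = 0.0487). That call was lost when blocking on replicate number (0.0823) and with any 1 array left out (0.103 to 0.203).

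Proteases that such serpins inhibit also gave no call. Of 29 genes 18 were tested and 0 passed (limma; 3 had an unadjusted p under 0.05), with a median of 0.19. The smallest p-values belonged to the lysosomal cathepsins Ctsl (0.32 ± 0.09), Ctsb (0.25 ± 0.09) and Ctss (1.23 ± 0.45), all SE with n = 3 per group.

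Responses in which Serpina3 copies are induced elsewhere were looked at as lists, which hold both regulators and target genes. Of 30 acute phase and Stat3 genes 22 were tested and 0 passed (limma; 4 had an unadjusted p under 0.05), with a median of 0.12. Lifr, a cytokine receptor, differed by -0.39 ± 0.09, Hpx, a haem-binding plasma protein, by 0.61 ± 0.20, and Cebpb, a transcription factor, by 0.49 ± 0.17 (SE, n = 3 per group). Of 16 glucocorticoid response genes all 16 were tested and 0 passed (limma; 2 had an unadjusted p under 0.05), with a median of 0.16. Sult1a1, a sulfotransferase, differed by -0.50 ± 0.12, Klf9, a hormone-induced transcription factor, by 0.61 ± 0.15, and Cdkn1a, a cell cycle inhibitor, by 0.51 ± 0.23.

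Of 34 interferon response genes 29 were tested, 1 rose and 1 fell, with a median of -0.04. The guanylate-binding protein Gbp3 read 1.61, 1.64 and 1.35 in the knockout against -0.15, -0.92 and -0.97 in wild type, and rose by 2.22 ± 0.23 (SE, n = 3 each, with limma adjusted p = 0.0172). Gbp7, of the same family, on the log2 scale fell by 1.61 ± 0.18 (SE, n = 3 each, with limma adjusted p = 0.0206). Blocking on replicate number, neither passed (0.0645 for Gbp3 and 0.0662 for Gbp7). With 1 array left out the adjusted p ran from 0.00944 to 0.101 for Gbp3 and from 0.0428 to 0.102 for Gbp7. Of the 29 tested genes 12 lay above 0 and 17 below.

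**Figure D4:**
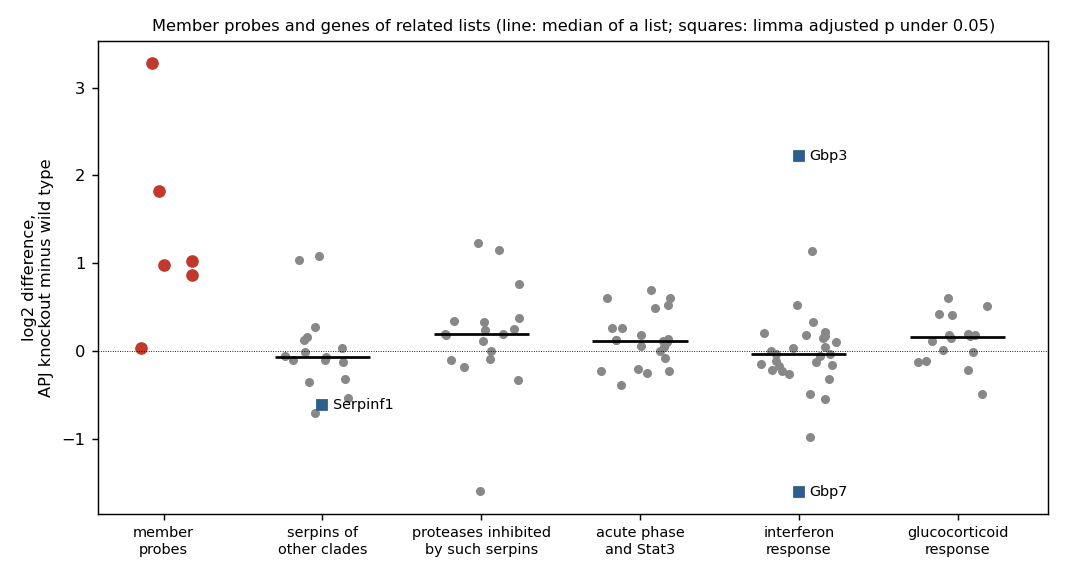
Log2 difference, APJ knockout minus wild type (vertical axis), for the 6 tested member probes (red) and each tested gene of 5 related lists (grey), with the median of each list as a line and genes past a limma adjusted p of 0.05 as labelled squares. List medians lie between -0.06 and 0.19, and the labelled genes are Serpinf1, Gbp3 and Gbp7.

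Markers of other cell types were read beside the members, and their part in the differences was not tested. Macrophage markers had 9 of 10 tested genes above 0 and a median of 0.84. None passed the threshold (limma), while 7 of 10 had an unadjusted p under 0.05, for which no share over all probes was computed. In 6 of 10 all knockout arrays lay above all wild-type arrays, the share being 6.41% over all tested probes. A different set of 6 of the 10 was well above background on all 6 arrays. Some, among them Lyz2, C1qa and C1qc, entered the test through the knockout arrays alone. That filter favours higher knockout values for such genes, so nothing is read from these counts. C1qb (0.48 ± 0.13), Mpeg1 (0.58 ± 0.14, both SE) and Aif1 were well above background on all 6 arrays, and their genotypes did not overlap. Csf1r, Mrc1 and Cx3cr1, also well above background on all 6, overlapped. With the normexp correction C1qb and Mpeg1 differed by 0.25 and 0.21. The differences were 1.83 ± 0.30 for Lyz2, 1.79 ± 0.35 for C1qa, 1.91 ± 0.45 for C1qc and 1.11 ± 0.28 for Aif1 (SE, n = 3 each). With the normexp correction they shrank to 0.39 for Lyz2, 0.52 for C1qa, 0.62 for C1qc and 0.71 for Aif1. Only 1 wild-type array cleared the background filter for Lyz2, while C1qc and C1qa each had 2 such arrays. The sizes for Lyz2, C1qa and C1qc thus rest in part on wild-type values that did not clear background. Lyz2 had a limma adjusted p of 0.0667, and of 0.0428 without wild-type array 3, the others left out in turn giving up to 0.234. C1qa passed when blocking on replicate number (adjusted p = 0.0326, limma), but not without a block (0.115) or when blocking on the slide (0.0749). Aif1 passed when blocking on the slide (0.0215, limma), but not without a block (0.243) or with the replicate block (0.0858). Lyz2 and C1qa entered the test through the knockout arrays alone, so nothing is read from their p-values. Their summed signal ran from 11.8 to 13.7 in the knockout and from 10.66 to 16.3 in wild type. The ranges overlapped, and the brightest genes in the sum, Csf1r and Mrc1, differed by -0.23 and 0.06. T and NK cell markers had 4 of 7 above 0 and a median of 0.09, with sums of 48.1 to 55.4 in the knockout against 36.4 to 43.5 in wild type, a gap in which Thy1 (0.42 ± 0.11, SE, n = 3 per group) is the most abundant gene. Neutrophil markers had 4 of 6 above 0 with a median of 0.40, and summed to 5.46 to 6.85 in the knockout against 6.15 to 8.95 in wild type. The most abundant of them in wild type was Elane, neutrophil elastase. It read 2.20, 2.16 and -1.74 in the knockout, against 2.31, 2.41 and 2.68 in wild type. Its difference was -1.60 ± 1.03 (SE, n = 3 each), and -0.29 without knockout array 3. Mpo differed the other way, by 2.10 ± 0.78.

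Of 9 hepatocyte markers 3 were tested (Trf, Apoa2 and Serpinc1), with a median of -0.03. The defining genes Alb, Afp, Ttr, Apoa1, Fgb and Ahsg had no probe well above background on all arrays of either genotype. The tested 3 summed to 20.9 to 23.2 in the knockout and 24.0 to 25.5 in wild type. Keratinocyte markers were below 0 in all 8 tested genes with a median of -1.17. Their sums were 10.8 to 11.8 in the knockout, against 10.9, 16.8 and 34.9 on wild-type arrays 1 to 3. Without wild-type array 3 the median was -0.46, with all 8 still below 0, and Krt5, for example, differed by -0.50 in place of -1.72. Medians were -0.05 for 5 tested mast cell markers, -0.14 for 6 fibroblast markers, -0.01 for 6 mural cell markers and 0.17 for 4 erythroid markers, and each of these 4 medians took both signs as single arrays were left out. With all 6 arrays and no block, no marker of any of these lists passed the threshold.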

How the data were processed

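The authors deposited 1 Agilent Feature Extraction 10.7.3.1 file per array, 1 colour, with intensity values on a linear scale; the processed intensity is background-subtracted and detrended but not normalised between arrays, per the file headers. Their deposited value table holds the same intensity times 1 constant per array. Here log2 intensity minus each array's 75th percentile was used, without control spots and spots marked as outliers (126 to 179 per array), and replicate spots were averaged. Only probes well above background on all arrays of 1 group were tested. Differences were fitted over all 28368 such probes with limma 3.58.1 in R 4.3.3, genotype as the only term, Benjamini-Hochberg threshold 0.05, two-sided; the fit was tested on simulated data. Symbols came from RefSeq tables by accession (47.4% of probes, 97.9% of those with a curated accession). Their build, GRCm38.p6, is later than mm9 on the array, so order and names only were taken from it, besides the promoter windows. A gene of a list counts by its brightest tested probe. Promoters were aligned with Biopython 1.88, with free end gaps.

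The members, lists and tests were chosen with earlier results of these data known. Named beyond the members are other detected Serpina genes, list genes past the threshold (otherwise the 3 with the smallest p), the nearest flanking genes and the 4 closest patterns. Outside this rule, Ctsg, Lyz2, C1qa, C1qb, C1qc, Aif1, Mpeg1, Csf1r, Mrc1, Cx3cr1, Elane, Mpo, Krt5 and Thy1 were named after their values were seen. Bounds and saturation did not arise for the tested members (0 saturated spots). Samples with the same replicate number deviated together from their group means (r = 0.252, 0.151 and 0.651 for numbers 1 to 3), and the numbers were taken to pair samples on that rule, the labels giving no such link. Samples with different numbers on the same slide did so as well (0.363 and 0.263), and across slides r was -0.33 to -0.491. On slide 1 pairs with the same number thus deviated together no more than pairs with different numbers. On slide 2 number and slide cannot be told apart. No pairing by number beyond the slide was therefore shown, and the replicate block rests on the numbers alone. Replicates 1 and 2 shared slide 1 and replicate 3 was on slide 2, which was also a separate scan. For Cma1, 1 array had no value. The number of arrays limits the precision. Some items are not reported here.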

Additional observations from a re-analysis of the deposited data

How the results depend on the processing

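The differences of the 6 tested member probes were recomputed under the alternatives and within each slide. Blocks, filters and 1 probe per gene leave a probe's difference as it is by construction (28 values). Of the other 72 values 62 moved by less than the spread between arrays and 10 by more, and 3 changed sign, all on the Serpina1e probe near 0. The number of member probes called higher was 4, and it was 2 with normexp (median in place of mean signals, which the files lack, added after seeing the data), 0 with the replicate block, 1 without a filter on dim probes and 1 to 2 with 1 array left out. Over all probes 132 were higher and 65 lower. With normexp 79 were higher, 244 and 128 when blocking on the slide, 8 and 3 under the replicate block, without a filter 10 and 2, with 1 probe per gene 90 and 45, and with 1 array left out 28 to 76 and 9 to 34. Serpins of other clades, 1 lower, had 0 with the deposited value table, the replicate block, no filter, 1 probe per gene and any 1 array left out (0 to 0). The interferon list, 1 higher and 1 lower, had 0 and 0 with the replicate block and without a filter, 0 lower with normexp, and 0 to 2 higher and 0 to 1 lower with 1 array left out. Blocking on the slide, 1 other Serpina probe (Serpina1a) and 1 protease (Ctsg) were called higher. The causes were not tested. No flanking gene passed under any alternative run. Normexp on mean signals was not run. Signal over background limits the dim probes: wild-type values went as low as 8.96% of the 75th percentile for Serpina3f probe A_55_P2104975 and 12.7% for Serpina1c.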

Other observations

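Beyond the Serpina cluster, the probes of chromosome 12 past the threshold lay far from it in gene order. They were named after their values were seen. Of 616 tested probes with a symbol on that chromosome 13 were higher and 1 lower (2.27%). The share over all tested probes, with or without a symbol, was 0.694%, so the 2 shares are not over like sets. Of the 13, 4 were the Serpina probes described above, which were chosen with this contrast known. Meg3, an imprinted long noncoding RNA, was higher on 3 probes (1.20 to 1.49) and lies 98 annotated genes beyond the last Serpina gene. Mirg, a noncoding RNA of the same imprinted region, was higher by 1.24 at 173 genes. Aspg, an asparaginase, was higher by 1.69 at 259 genes, and A530016L24Rik by 3.94 to 4.38 on 3 probes at 271 genes. Esrrb, an orphan nuclear receptor, was higher by 0.66 on the other side, 274 genes before the cluster. The 1 lower probe was 5033406O09Rik (-1.47). Between the cluster and Meg3, 0 tested probes with a symbol passed. Chromosome 4 had the highest share, 2.78% of 1186 probes, and chromosome 15 the lowest of those with over 100 tested probes, 0.148% of 674. No test of these shares was made.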
